A study of Mus musculus with 6 samples.

Results

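The inflammasome genes described here are Nlrp3, Nlrc4, Aim2, Nek7, Pycard, Casp1, Casp4, Gsdmd, Il1b and Il18. They form a set of 10 genes of the 25124 listed, picked from the pathway with earlier results of these data known, and each was matched by symbol to 1 row of the table. RAW264.7 is an immortalized mouse macrophage-like line, and the cells were a control line that had received a Cas9 plasmid with no guide RNA. All libraries share that history, growth in 25 mM glucose medium with 10% serum, and poly(A) RNA taken from 200 ng of total RNA. The 3 M0 libraries had no IL-4 and the 3 M2 libraries had IL-4 at 10 ng/ml, the cytokine used to drive alternative activation. The labels give no time of exposure. The comparison of M2 with M0 asks how the transcripts of the line differ after IL-4. Levels are in TPM, a share of all transcripts scaled for transcript length and so lets genes be compared with one another.

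Inflammasomes are protein platforms that a cell builds when a sensor meets a microbe or a sign of damage. NLRP3 responds to loss of potassium and to membrane stress and needs the kinase NEK7. AIM2 binds DNA in the cytosol, and NLRC4 acts with NAIP proteins that recognise bacterial flagellin and secretion needles. The adaptor ASC, encoded by Pycard, links sensors to caspase-1, which cuts the precursors of IL-1 beta and IL-18 and opens gasdermin D into a pore. Caspase-11, encoded in mouse by Casp4, binds lipopolysaccharide directly and also cuts gasdermin D. Nlrp3 and Il1b are usually low in resting macrophages and rise with NF-kappaB signalling, a step known as priming.

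Of the 10 genes, 9 passed the filter on low values (1 TPM or more in 3 or more libraries) and Il1b did not. With limma on log2(TPM + 1), 5 of the 9 fell in M2, 1 rose and 3 were not called at an adjusted p under 0.05. Over all 11202 tested genes 43.7% were called, 23.7% as lower and 20.1% as higher, and the larger of these shares turned to the higher genes with median-ratio scaling (2720 higher and 2500 lower). The median log2 fold change was -0.26 for the 9 genes and -0.03 for all tested genes. The 5 that fell were the sensors Nlrp3, Nlrc4 and Aim2 and the caspase substrates Gsdmd and Il18. Nek7 rose, a call that did not hold when most single libraries were left out. Pycard, Casp1 and Casp4 were not called.

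Reads recovered from the values came to 15615639 to 19511192 per library. The treatment markers Arg1 and Socs1 stood at 0.174 and 1.09 TPM without IL-4 and at 15.3 and 46.4 TPM with it. All 10 macrophage markers passed the filter, with a summed level of 3388 to 3718 TPM in M0 and 3239 to 3350 TPM in M2. Single markers went both ways. Adgre1, Mertk, Fcgr1 and Ctss were called higher in M2, Itgam and Tyrobp lower, and Csf1r, Cd68, Lyz2 and Spi1 were not called. What part these differences had in the results was not tested. The neutrophil list summed to at most 5.98 TPM, nearly all of it S100a8, and the lists of other cell types to at most 1.70 TPM in any library. Cd3g, Cd8a and Krt8 had 0 reads. In bulk RNA, fewer cells of a type and less RNA per cell cannot be told apart. Nothing in the labels says that replicates were separate cultures, so p-values measure the spread between these libraries, which may be technical. The M0 libraries alone carry a re-analysis note, so any batch behind it and IL-4 cannot be told apart. M2 replicate 3 stood apart from the other M2 libraries, with a chi-square per degree of freedom of 21.3 and 21.2 against 2.27 to 6.14 for every other pair within a group. The genes with the 4 longest transcript models, Nek7, Nlrp3, Nlrc4 and Aim2 (2526 to 4292 bases), were each lowest among the M2 libraries in replicate 3. Without it 2869 genes were called higher and 2825 lower, and members are also given without it.

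Casp1 was the most abundant of the 10 genes in both groups and Il1b the least. In M0 the order of mean levels was Casp1, Nek7, Gsdmd, Pycard, Aim2, Nlrp3, Casp4, Il18, Nlrc4 and Il1b, from 86.1 TPM down to 0.239 TPM. Among neighbours in that order, the M0 libraries overlapped between Nek7 and Gsdmd, at 56.4 and 56.0 TPM. They also overlapped between Pycard and Aim2, at 53.3 and 53.0 TPM. Beyond neighbours, the lowest M0 value of Nek7, 54.3 TPM, lay below the highest of Pycard (54.8 TPM) and of Aim2 (55.4 TPM). In M2 the order was Casp1, Nek7, Pycard, Gsdmd, Aim2, Casp4, Nlrp3, Il18, Nlrc4 and Il1b, from 95.9 TPM down to 0.360 TPM, and no neighbours overlapped. Nlrp3 thus stood above Casp4 in every M0 library and below it in every M2 library.

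**Figure D1:**
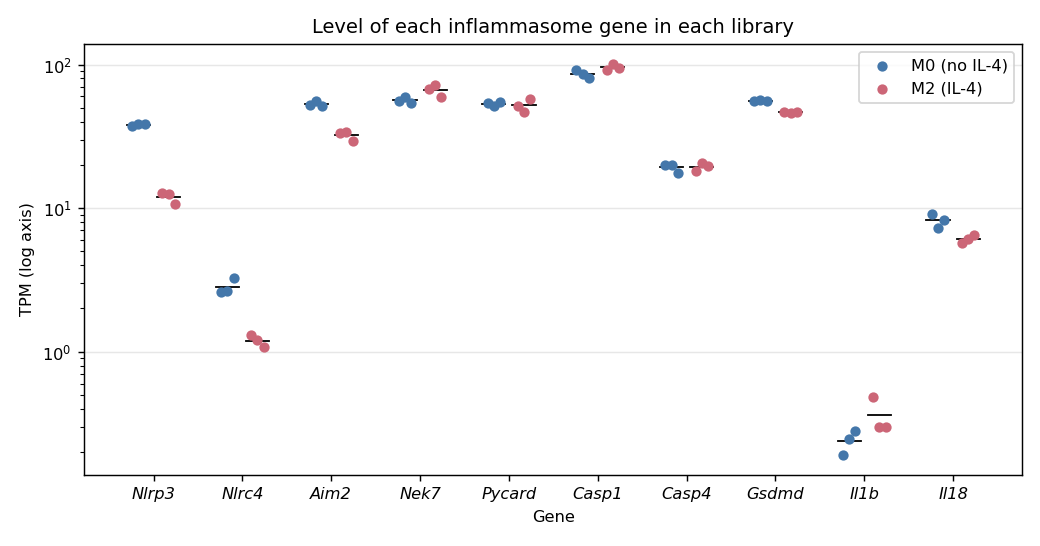
TPM on a log axis for the 10 genes in each of the 3 M0 and 3 M2 libraries, with points from left to right as replicates 1, 2 and 3 and a short bar at each mean. Nlrp3 lies at 37.4 to 38.7 TPM in the M0 libraries and at 10.6 to 12.8 TPM in the M2 libraries, while Pycard stays between 47.0 and 57.6 TPM in all 6 libraries.

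The adaptor gene Pycard was well expressed at the RNA level. It stood at 53.9, 51.2 and 54.8 TPM in M0 replicates 1, 2 and 3 and at 51.5, 47.0 and 57.6 TPM in M2 replicates 1, 2 and 3. The M2 libraries spanned a wider range that enclosed the M0 range. Between 1507 and 2133 reads lay behind each value. By its mean over the 6 libraries Pycard ranked 2137th of all 25124 genes, above 80.9% of those tested. Its log2 fold change was -0.04 (SE 0.077, adjusted p = 0.713 by limma), and the 95% interval on log2(TPM + 1) ran from 0.862-fold to 1.10-fold. The log2 fold change was -0.11 without M2 replicate 3 (adjusted p = 0.144). RAW264.7 is known for little or no ASC protein, and protein was not measured here. The transcript model is NM_023258, chromosome 7, 127991373 to 127993867, minus strand, on mm10. In GENCODE M21 the gene model Gm45205 lies on the opposite strand and shares 485 exonic bases with Pycard. Whether the counting used strand is not known here, and reads from those bases could come from either gene.

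The sensors that fell and the adaptor are shown by the 250 bases before the start of the transcript model, since their RNA is what the results turn on, and Nek7 is added as the single gene that rose. Sequences are from RefSeq on GRCm38.p6, 5′ to 3′ on the strand of the gene, and 9 of the 10 genes had an entry. Capitals mark matches, on either strand, to TTC and GAA with any 4 bases between them (the spacing STAT6 prefers), GGGA and CC with any 4 bases between them (a loose NF-kappaB site), GAAA and GAAA with any 2 bases between them (an IRF site) or GAGGAAGT (a PU.1 site).
Nlrp3, chr11:59541319-59541568, plus strand: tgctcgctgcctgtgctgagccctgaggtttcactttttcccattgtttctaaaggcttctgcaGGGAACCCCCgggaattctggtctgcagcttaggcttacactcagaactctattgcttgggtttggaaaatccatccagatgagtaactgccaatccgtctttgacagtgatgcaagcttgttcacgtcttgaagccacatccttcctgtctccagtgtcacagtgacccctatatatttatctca
Nlrc4, chr17:74459109-74459358, minus strand: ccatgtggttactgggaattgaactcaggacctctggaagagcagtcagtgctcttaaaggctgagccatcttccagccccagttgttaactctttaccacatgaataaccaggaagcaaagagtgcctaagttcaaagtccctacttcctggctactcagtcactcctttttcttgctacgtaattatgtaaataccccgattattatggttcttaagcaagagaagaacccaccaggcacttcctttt
Aim2, chr1:173420354-173420603, plus strand: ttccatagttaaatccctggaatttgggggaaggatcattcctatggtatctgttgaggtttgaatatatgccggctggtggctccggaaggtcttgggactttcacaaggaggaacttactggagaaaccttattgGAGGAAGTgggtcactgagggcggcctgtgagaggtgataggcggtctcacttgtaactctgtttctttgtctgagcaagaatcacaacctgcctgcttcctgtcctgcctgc
Nek7, chr1:138619758-138620007, minus strand: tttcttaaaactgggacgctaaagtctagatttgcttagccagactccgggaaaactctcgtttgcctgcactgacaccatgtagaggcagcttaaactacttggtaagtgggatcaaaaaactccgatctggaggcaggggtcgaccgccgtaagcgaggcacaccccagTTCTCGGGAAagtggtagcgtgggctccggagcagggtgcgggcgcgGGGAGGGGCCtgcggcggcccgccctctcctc
Pycard, chr7:127993868-127994117, minus strand: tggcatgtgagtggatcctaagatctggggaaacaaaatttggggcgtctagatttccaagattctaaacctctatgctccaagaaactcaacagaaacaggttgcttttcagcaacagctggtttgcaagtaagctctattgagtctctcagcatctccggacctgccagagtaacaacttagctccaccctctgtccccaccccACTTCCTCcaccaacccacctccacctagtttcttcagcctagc
The Nlrp3 window held 1 match to the NF-kappaB letters, which 17.6% of all 32851 RefSeq windows of that length also held. Aim2 and Pycard each held 1 PU.1 match, against 2.44% of all windows, on the plus strand of the gene for Aim2 and on the other strand for Pycard. Nek7 held a STAT6 match 79 to 70 bases before its start, against 5.85% of all windows, and an NF-kappaB match. Il18 held the STAT6 match TTCCCCAGAA, 46 to 37 bases before its start, and Casp4 the NF-kappaB match GGGATTTCCC, 92 to 83 bases before its start, whose reverse complement matches too. None of the 9 windows held the IRF letters, found in 2.98% of all windows, and those of Nlrc4, Casp1 and Il1b held no match to any of the letters searched. A match is a string of letters, and binding was not measured.

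Nlrp3, the sensor of potassium loss and membrane stress, changed most of the 10 genes. It stood at 37.4, 38.6 and 38.7 TPM in M0 replicates 1, 2 and 3 and at 12.8, 12.6 and 10.6 TPM in M2 replicates 1, 2 and 3. Every M2 library was below every M0 library, with 2007 to 2305 reads behind each M0 value and 724 to 776 behind each M2 value. The ratio of means was 3.18-fold lower in M2 (log2 fold change -1.60, SE 0.079, adjusted p = 3.10e-06 by limma). Counting Nlrp3 itself, 20 of the 11202 tested genes had a log2 fold change that low. It was -1.52 without M2 replicate 3 (adjusted p = 8.28e-07). The model is NM_001359638, chromosome 11, 59541569 to 59566953, plus strand.

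Nlrc4 was the lowest of the 3 sensors in both groups and also fell. It stood at 2.62, 2.64 and 3.23 TPM in M0 replicates 1, 2 and 3 and at 1.30, 1.20 and 1.08 TPM in M2 replicates 1, 2 and 3. The groups did not overlap, and each value rested on 69 to 164 reads, far fewer than for Nlrp3. The ratio of means was 2.38-fold lower in M2, while the log2 fold change on log2(TPM + 1) was -0.80 (SE 0.11, adjusted p = 4.90e-04), since that scale understates changes of genes with low TPM. With limma-voom on recovered reads the log2 fold change was -1.20. Its model is NM_001033367, chromosome 17, 74426295 to 74459108, minus strand.

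Aim2, the sensor of cytosolic DNA, stood close to Pycard in M0 and below it in M2. Its values were 52.4, 55.4 and 51.2 TPM in M0 replicates 1, 2 and 3 and 33.1, 34.0 and 29.2 TPM in M2 replicates 1, 2 and 3. No M2 library reached the lowest M0 library. The ratio of means was 1.65-fold lower in M2 (log2 fold change -0.71, SE 0.071, adjusted p = 1.04e-04). The model is NM_001013779, chromosome 1, 173420604 to 173466036, plus strand. Falls of this size were not rare: 8.92% of tested genes fell with a ratio of at least 1.5, among them all 3 sensors. Without M2 replicate 3 the log2 fold changes were -0.77 for Nlrc4 and -0.64 for Aim2, and both calls held.

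Nek7 encodes the kinase that binds NLRP3 and helps it assemble. It stood at 55.6, 59.3 and 54.3 TPM in M0 replicates 1, 2 and 3 and at 67.5, 72.2 and 59.4 TPM in M2 replicates 1, 2 and 3. M2 replicate 3 lay just above the highest M0 library and well below the other M2 libraries. The ratio of means was 1.18-fold higher in M2 (log2 fold change 0.23, SE 0.077, adjusted p = 0.0404). Without M2 replicate 3 the log2 fold change was 0.30 (adjusted p = 0.00283). The call was lost without M0 replicate 1 (adjusted p = 0.107), M0 replicate 2 (0.0563), M0 replicate 3 (0.136), M2 replicate 1 (0.0978) or M2 replicate 2 (0.121). The model is NM_021605, chromosome 1, 138483837 to 138619757, minus strand, and the antisense gene Gm28501 shares 118 exonic bases with Nek7.

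The 2 inflammatory caspases lie next to each other on chromosome 9, and neither was called. Casp1, which cuts the IL-1 beta and IL-18 precursors, stood at 90.9, 86.6 and 80.8 TPM in M0 replicates 1, 2 and 3 and at 91.8, 101.5 and 94.2 TPM in M2 replicates 1, 2 and 3. All M2 libraries lay above all M0 libraries, by a margin smaller than the spread within either group. Its log2 fold change was 0.15 (SE 0.065, adjusted p = 0.0830), with a 95% interval from 1.01-fold to 1.23-fold before adjustment. It was called with median-ratio scaling (adjusted p = 0.0481) and with limma run on the log2-scale values of the authors' table (0.0460), within a range of 0.0460 to 0.285 over 14 alternatives. The log2 fold change was 0.17 without M2 replicate 3 (adjusted p = 0.0670).

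Casp4, which encodes the lipopolysaccharide-binding caspase-11, stood at 20.1, 19.9 and 17.7 TPM in M0 replicates 1, 2 and 3 and at 18.1, 20.7 and 19.5 TPM in M2 replicates 1, 2 and 3. The groups overlapped across most of their range. Its log2 fold change was 0.02 (SE 0.079, adjusted p = 0.860), with an interval from 0.896-fold to 1.15-fold, and 0.02 without M2 replicate 3 (adjusted p = 0.886). The Casp1 model, NM_009807, runs from 5298517 to 5307281 and that of Casp4, NM_007609, from 5308849 to 5336791, both on the plus strand.

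Gsdmd, the pore protein that both caspases cut, fell by a small and even step. It stood at 55.7, 56.8 and 55.5 TPM in M0 replicates 1, 2 and 3 and at 46.9, 46.0 and 46.7 TPM in M2 replicates 1, 2 and 3. The highest M2 library lay well below the lowest M0 library. Of the 9 tested genes 7 did not overlap between groups, beside 55.9% of all tested genes. For Casp1, Nek7 and Il18 the gap was smaller than the spread within a group. Without overlap 5 of the 9 lay lower in M2 and 2 higher, beside 30.8% and 25.1% of all tested genes. The ratio of means was 1.20-fold lower in M2 (log2 fold change -0.26, SE 0.051, adjusted p = 0.00335). The call held in each of 14 alternatives, with an adjusted p of at most 0.0233, and without M2 replicate 3 the log2 fold change was again -0.26. The model is NM_026960, chromosome 15, 75862339 to 75867404, plus strand.

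Il18, whose precursor macrophages hold before any stimulus, stood at 9.04, 7.31 and 8.29 TPM in M0 replicates 1, 2 and 3 and at 5.72, 6.13 and 6.52 TPM in M2 replicates 1, 2 and 3. The highest M2 library lay below the lowest M0 library, by a margin smaller than the spread within M0. Each value rested on 101 to 162 reads. The ratio of means was 1.34-fold lower in M2 (log2 fold change -0.37, SE 0.097, adjusted p = 0.0143). Without M2 replicate 3 the log2 fold change was -0.41 (adjusted p = 0.00670). The call was lost without M0 replicate 1 (-0.30, adjusted p = 0.0617) or M0 replicate 3 (-0.36, 0.0549). It was also lost on the authors' log2-scale values, where the log2 fold change was -0.15 (0.0537). The model is NM_001357221, chromosome 9, 50554700 to 50581841, plus strand. The TPM table and the comparison table use different models of this gene, of 1138 and 855 bases.

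Il1b, the gene of the main inflammasome cytokine, was close to silent in both groups. It stood at 0.190, 0.246 and 0.282 TPM in M0 replicates 1, 2 and 3 and at 0.482, 0.298 and 0.300 TPM in M2 replicates 1, 2 and 3. All M2 values lay above all M0 values, but they rested on 4, 5 and 5 reads in M0 and 10, 6 and 7 in M2. The exact 95% Poisson intervals, which cover counting error only, were 7.65 to 23.5 for the 14 M0 reads and 14.6 to 34.5 for the 23 M2 reads, and they overlap. The two-sided exact permutation test gave p = 0.1, the smallest that 3 against 3 libraries allow. These libraries therefore do not settle whether Il1b differed. The model is NM_008361, chromosome 2, 129364578 to 129371139, minus strand, and the antisense gene Il1bos, which shares 25 exonic bases, was listed at 0.095 TPM or less.

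**Figure D2:**
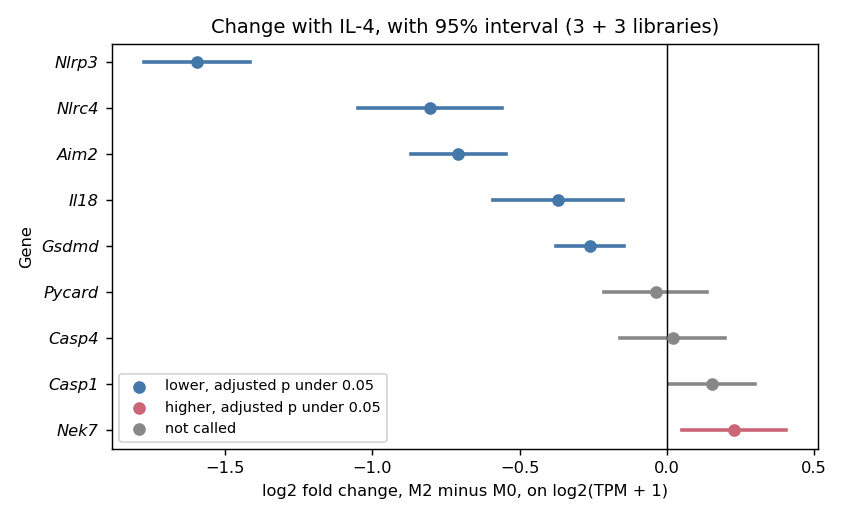
Log2 fold change (M2 minus M0, on log2(TPM + 1)) of the 9 tested genes, with points at the estimate and lines for the 95% interval before adjustment, coloured by call. Nlrp3 at -1.60 lies apart from Nlrc4 at -0.80 and Aim2 at -0.71, and the intervals of Pycard and Casp4 span 0.

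The authors' deposited table of M0 against M2, positive where M2 is higher, gave the same directions for 9 of the 10 genes, Pycard being the exception with values near 0 in both. In the authors' deposited table the log2 fold change was -1.63 for Nlrp3 (adjusted p = 1.20e-85), -1.21 for Nlrc4 (8.38e-09) and -0.69 for Aim2 (5.83e-17). For Nlrp3, as for Il18, it rests on another transcript model, NM_145827 of 4002 bases. The other members keep the model name, but Nek7 has 4292 bases for TPM and 3347 in the authors' deposited table. That table, which called 26.4% of the genes with a fold change, also called Gsdmd at -0.23 (adjusted p = 0.0120) and Nek7 at 0.26 (0.00591). In the authors' deposited table Il18, at -0.32, was not called (adjusted p = 0.174), nor was Casp1, at 0.19 (0.0578). Pycard, at 0.01, had an adjusted p of 0.953 there, Casp4, at 0.06, one of 0.759 and Il1b, at 0.43, one of 0.709.

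Ratios of TPM within a library do not depend on how libraries are scaled, but a shift in 1 library that differs between genes stays in them. In M2 replicate 3 the ratios of Nlrp3, Aim2, Nlrc4 and Casp1 to Pycard were each the lowest of the M2 libraries. The pairs were picked with the values known, and 3 against 3 libraries cannot give an exact p below 0.1, so the ratios are a description. For each transcript of Pycard there were 0.694, 0.754 and 0.705 of Nlrp3 in M0 replicates 1, 2 and 3, and 0.248, 0.268 and 0.185 in M2 replicates 1, 2 and 3. The sensor transcript was thus below the adaptor transcript in all libraries and further below it with IL-4. Aim2 was near parity with Pycard in M0, at 0.997 ± 0.0773, and at 0.625 ± 0.109 in M2 (SD, n = 3 each). The ratio of Nlrp3 to its kinase partner Nek7 went from 0.679 ± 0.0316 in M0 to 0.181 ± 0.00761 in M2 (SD, n = 3 each). Nlrp3 also fell relative to Aim2, from 0.722 ± 0.0301 to 0.373 ± 0.0117. Gsdmd relative to Casp1 went from 0.652 ± 0.0370 to 0.487 ± 0.0298 and Il18 relative to Casp1 from 0.0955 ± 0.00974 to 0.0640 ± 0.00461, each without overlap. The ratio of Casp1 to Pycard overlapped between the groups, at 1.62 ± 0.124 and 1.86 ± 0.270.

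**Figure D3:**
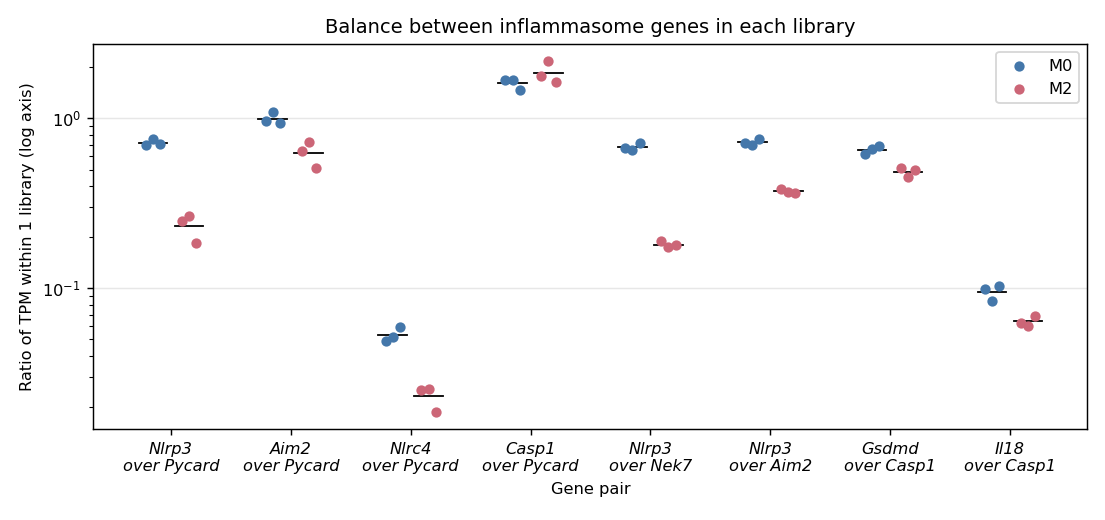
Ratio of TPM between 2 inflammasome genes within each library, on a log axis, for 3 M0 and 3 M2 libraries with a short bar at each mean. Nlrp3 over Nek7 is 0.650 to 0.713 in M0 and 0.175 to 0.189 in M2, and Casp1 over Pycard is the single pair shown whose groups overlap.

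Around these 10 genes, 93 other genes of the pathway were listed by role, and 70 of them were tested. Of the 70, 29 fell (41.4%) and 10 rose (14.3%), beside the 23.7% and 20.1% of all tested genes, with a median log2 fold change of -0.17. Leaving out 1 library at a time gave 24 to 28 that fell and 7 to 17 that rose. The count of 17 came without M2 replicate 3, when 7 more genes were called higher, Bcl2, Casp2, Ddx3x, Il18rap, Il1rl1, Nlrp1b and Tnfaip3.

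Among other sensors, 5 of 10 tested genes fell (50%) and 1 rose (10%), beside 23.7% and 20.1% of all tested genes. With the filter raised to 5 TPM 1 fell, as the other 4 then went untested. Nod2, which detects bacterial muramyl dipeptide, had a mean of 3.50 ± 0.336 without IL-4 and of 0.913 ± 0.149 TPM with it (SD, n = 3 each; adjusted p = 5.29e-05). Nlrc5, a regulator of class I antigen presentation genes, fell 1.94-fold, Nlrc3 1.51-fold and Nlrx1 1.38-fold. For each of them M2 replicate 3 held the lowest value, for Nlrc5 0.825 TPM against 1.59 and 1.48 TPM in M2 replicates 1 and 2. With 1 library left out the log2 fold change of Nlrc5 lay between -0.73 and -0.47, and its call held. Naip5, the flagellin receptor that works with NLRC4, went from 3.43 to 2.54 TPM (adjusted p = 0.0400). Reads of its near-identical gene copies cannot be separated with certainty, and its call was lost in 5 of 6 runs that each left out 1 library (all but M2 replicate 2), with an adjusted p of up to 0.143. Naip2 and Naip6, at log2 fold changes of -0.26 and -0.34, were not called. Ifi204, a DNA sensor of a family with close copies, rose 1.30-fold. That call was lost without M0 replicate 1, M0 replicate 3 or M2 replicate 2, with an adjusted p of up to 0.0636. Nlrp1b was at 10.9 and 11.9 TPM and was called without M2 replicate 3 (adjusted p = 0.0368). Nlrp6, Nlrp9b, Nlrp10, Nlrp12, Mefv and Naip1 each had at most 24 reads over the 3 libraries of a group.

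Of 6 other caspases tested, 1 fell (16.7%) and 0 rose, beside 23.7% and 20.1% of all tested genes. Casp8, the apical caspase of death receptors that can also enter inflammasomes, fell from a mean of 65.4 ± 1.32 without IL-4 to 52.5 ± 2.19 TPM with it (SD, n = 3 each; adjusted p = 0.00211). Casp6, Casp9 and Casp2 were not called, with log2 fold changes from -0.20 to 0.15. Casp2 was called higher without M2 replicate 3 (adjusted p = 0.0310).

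Of 17 upstream activators and licensing factors tested, 5 fell (29.4%), 3 rose (17.6%) and 9 were not called. Those shares lay close to the 23.7% and 20.1% of all tested genes. On the authors' values 5 rose. Txnip, a thioredoxin-binding protein linked to NLRP3, fell from 102.5 to 62.5 TPM and Irf8, a macrophage transcription factor that supports Naip expression, from 115 to 72.2 TPM. Irf1 fell 1.22-fold and Hdac6 1.30-fold. Panx1, a channel that releases ATP, rose from 13.1 to 18.2 TPM and Clic4, a chloride channel protein, from 345 to 449.6 TPM. Gbp3, of a GTPase family with close copies, rose 1.30-fold. Some of these calls did not hold with 1 library left out. Gbp3 was called in 1 of 6 runs that left out a library, the one without M2 replicate 3, with an adjusted p of up to 0.0895. Hdac6 was lost without any one of the 3 M0 libraries (up to 0.0792) and Irf1 without M0 replicate 1 or 3 (up to 0.0624).

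Of 9 tested genes listed as inhibitors, 3 fell (33.3%), 1 rose (11.1%) and 5 were not called, beside 23.7% and 20.1% of all tested. With median-ratio scaling, with limma-voom or on the authors' values, 3 rose. Ptpn22, a tyrosine phosphatase that acts on NLRP3 and has been described as favouring its activation, had a mean of 8.40 ± 0.786 without IL-4 and of 2.30 ± 0.169 TPM with it (SD, n = 3 each; adjusted p = 1.12e-05). Bcl2l1, the survival protein BCL-XL that binds NLRP1, fell 1.74-fold, and Trim30a, which limits NLRP3 activity, 1.59-fold. Il10, the anti-inflammatory cytokine gene, rose from 2.13 to 5.61 TPM (adjusted p = 4.62e-04). Without M2 replicate 3, Bcl2 and Tnfaip3 were also called higher (adjusted p = 4.62e-04 and 0.0348).

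Of 7 tested genes of membrane rupture and repair, 3 fell (42.9%) and 1 rose (14.3%), beside 23.7% and 20.1% of all tested. Ninj1, which ruptures the plasma membrane after pore formation, fell from a mean of 163 ± 3.66 without IL-4 to 124 ± 4.56 TPM with it (SD, n = 3 each; adjusted p = 4.73e-04). Gsdme, another gasdermin, fell 1.70-fold and Chmp4b, part of the ESCRT-III complex that mends membranes, 1.25-fold. Hmgb1, a nuclear protein released from dying cells, rose 1.27-fold.

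In the IL-1 and IL-18 family, 2 of 7 tested genes rose (28.6%) and 2 fell (28.6%), beside 20.1% and 23.7% of all tested. Il1rap, the shared accessory chain of IL-1 family receptors, rose from a mean of 5.62 ± 0.561 without IL-4 to 12.2 ± 1.28 TPM with it (SD, n = 3 each; adjusted p = 1.33e-04). Il1rn, the IL-1 receptor antagonist, rose 1.22-fold. That call was lost without M0 replicate 1, M0 replicate 3, M2 replicate 1 or M2 replicate 2, with an adjusted p of up to 0.127. The decoy receptor gene Il1r2 fell 2.22-fold and Sigirr, an inhibitory receptor, 1.47-fold. Without M2 replicate 3, Il18rap and Il1rl1 were called higher as well (adjusted p = 0.00653 and 0.0345). The signalling receptor genes Il1r1 and Il18r1 had 10 and 5 reads in M0 and 27 and 10 in M2, and Il1a had 7 and 4.

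Of the 14 genes of the priming pathway, all tested, 10 fell (71.4%), 2 rose (14.3%) and 2 were not called. Beside these stand 23.7% and 20.1% of all tested genes. The median log2 fold change of the 14 was -0.30. Nfkbiz, a nuclear cofactor of NF-kappaB, was 6.11-fold lower, Cd14 2.05-fold and Tlr2 1.72-fold. Irak2, a kinase of the MyD88 complex, went from 25.7 to 12.9 TPM. Tlr4, the receptor for lipopolysaccharide, rose from a mean of 26.6 ± 1.68 without IL-4 to 38.3 ± 6.42 TPM with it and Nfkb1 from 63.0 ± 4.37 to 101.0 ± 3.60 TPM (SD, n = 3 each; adjusted p = 0.00707 and 8.32e-05). Irak1 and Traf6, at log2 fold changes of -0.02 and -0.11, were the ones not called. The other genes that fell were Ticam1, Rela, Irak4, Nfkbia, Ly96 and Myd88, with Ly96 and Myd88 singled out here after their values were seen, as close to the threshold (adjusted p = 0.0472 and 0.0431). Leaving out 1 library at a time gave 8 or 9 that fell. The count was 8 with no filter, median-ratio scaling, limma-voom, the authors' values, no variance trend or the replicate block. It stayed at 10 with the other pseudocount or the stricter filter.

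**Figure D4:**
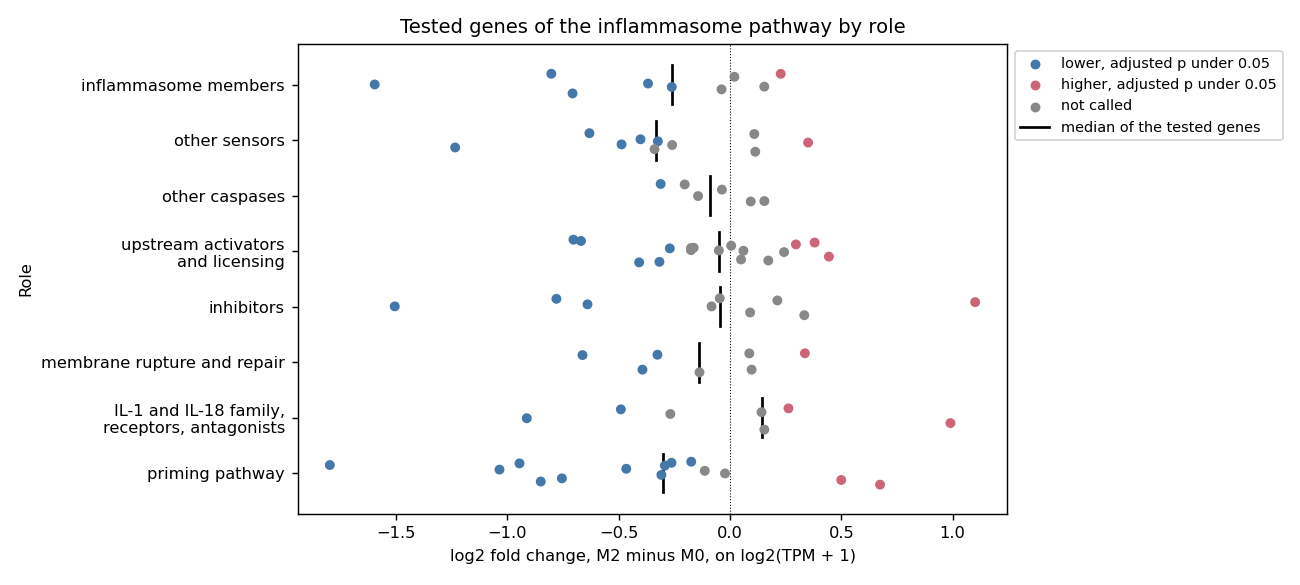
Log2 fold change (M2 minus M0, on log2(TPM + 1)) of each tested gene, 1 point per gene, by role, with a bar at the median and colour for the call; vertical placement within a row has no meaning. The median is -0.33 for other sensors and -0.30 for the priming pathway, and 0.14 for the IL-1 and IL-18 family.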

How the data were processed

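Poly(A) RNA of 6 libraries was measured by RNA sequencing. Tools listed, without roles, in the submitters' processing notes are STAR 2.7.5a, HOMER 4.11.1, bcl2fastq and DESeq2, with the build mm10; strand and multimapper settings are not stated there. Per the file headers, the authors' first table gives TPM with 1 transcript model per gene. The authors' second table gives values per library, read as log2 from their range, and beside them the authors' log2 fold change with its p-value, raw and adjusted.

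The 11202 genes at 1 TPM or more in 3 or more libraries were fitted with limma 3.58.1 (R 4.3.3) on log2(TPM + 1) by group, with a variance trend and Benjamini-Hochberg adjustment over all of them. Il1b had an exact permutation test. Reads were recovered because TPM times transcript length moves in even steps within a library (100.00% of values fine enough to tell lay within 0.1 of a whole number, where chance gives 20.0%). TPM gives no depth by itself, and these reads set the counting precision. The fit was tested on simulated data. Python 3.11.15 with pandas 2.3.3, scipy 1.17.1 and matplotlib 3.10.9 made tables and plots.

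The members and lists were chosen with earlier results of these data known. Named genes were the 10 members, up to 4 genes per role with the lowest adjusted p, and all genes of a count of 5 or fewer. Alternatives were another pseudocount, filters, scaling, limma-voom with TMM factors, the authors' values, no variance trend, a replicate block and leaving out each library. A few genes of the lists enter the counts but are not reported here by name.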

Additional observations from a re-analysis of the deposited data

How the results depend on the processing

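The falls of Nlrp3, Aim2 and Gsdmd held in each of 14 alternatives and that of Nlrc4 in each of 13, since Nlrc4 was not tested under the stricter filter. The number of members that rose was 0 with no filter, 2 with median-ratio scaling, 2 on the authors' values and 0 without the variance trend, and 0 to 1 with 1 library left out. Over all tested genes, more were called lower than higher except with median-ratio scaling (2720 higher, 2500 lower), limma-voom (2685 and 2684), the authors' values (2643 and 2519) and without M2 replicate 3 (2869 and 2825). Of the other pathway genes, 7 to 17 rose with 1 library left out. Nek7 did not pass with no filter (adjusted p = 0.0868) or without the variance trend (0.0669).

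Among genes that were not called, some log2 fold changes near 0 turned sign, and the cause was not tested. Pycard was at 0.0012 with median-ratio scaling and 0.0017 on the authors' values, and between -0.11 (without M2 replicate 3) and 0.031 (without M2 replicate 2) with 1 library left out. Casp4 lay between -0.036 (without M0 replicate 3) and 0.066 with 1 library left out, and was at -0.023 without M2 replicate 2. Irak1 was at 0.016 with median-ratio scaling, 0.0078 with limma-voom and 0.017 on the authors' values, and between -0.069 and 0.033 (without M2 replicate 3) with 1 library left out. With 1 library left out March7 lay between -0.12 and 0.029 (without M2 replicate 3) and Nlrp1a between -0.0078 (without M2 replicate 1) and 0.25.

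The replicate numbers are not said to pair the libraries. Deviations of same-numbered libraries correlated at -0.03, 0.21 and 0.03, and those of differently numbered libraries at -0.20 to 0.17. With 3 libraries per group these values cannot show whether the libraries were paired, and the main fit used no pairing. With the replicate block 2236 genes rose and 2634 fell, against 2248 and 2651, and 1 member rose and 5 fell, as without it. Il1b had 4 to 10 reads per library, and 3 against 3 libraries cannot give an exact p below 0.1.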
